A study of Mus musculus with 6 samples.

Results

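The 32 genes described here belong to the unfolded protein response and the integrated stress response, and were followed in primary cultures of mouse testicular peritubular myoid cells with and without endothelin-1 (ET-1). They were chosen by symbol as known members of these pathways, not by a threshold on their values, and all 32 were found among the 19285 genes with values. All 32 were also among the 11664 genes tested. Peritubular myoid cells are smooth-muscle-like cells that wrap the seminiferous tubules, and ET-1 is a vasoconstrictor peptide. All cells were primary cultures from C57BL/6J mice kept in DMEM/F12 with 10% serum. One group of 3 libraries had no treatment, and the other group of 3 libraries had 50 nM ET-1 for 5 min. Levels are in FPKM, the fragments of a gene scaled to the length of its transcript and to the depth of the library, and 3 values in a row stand for libraries 1, 2 and 3 of a group. Nothing in the labels says that replicate libraries are separate cultures or mice. The p-values therefore measure the spread among these 6 libraries, which may be technical.

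The unfolded protein response is the reaction of the endoplasmic reticulum (ER) to unfolded proteins. The membrane sensors ATF6, IRE1 (gene Ern1) and PERK (gene Eif2ak3) start it, and ATF6 and the spliced form of XBP1 raise the genes of ER chaperones and of the degradation of ER proteins. PERK and the related kinases of the integrated stress response phosphorylate the translation factor eIF2, which lowers general protein synthesis while translation of the ATF4 message increases. ATF4 in turn raises genes of amino acid synthesis and transport and the transcription factor CHOP (gene Ddit3). Peritubular myoid cells secrete matrix proteins of the tubule wall, which fold in the ER.

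The DNA elements through which ATF6, XBP1 and ATF4 act were looked for in the promoters, and each match is printed because the results below compare the chaperone genes with the ATF4-arm genes. The sequences are RefSeq's for build GRCm38.p6, each running from 250 bases before to 50 bases after a gene's start, and 29 of the 32 genes had one (Hyou1, Manf and Atf6 had none). The ER stress response element, read by ATF6 with NF-Y and by XBP1, was searched on both strands as CCAAT and CCACG with any 9 bases between them. It was found in 8 of the 29 genes and in 0.119% of all 32851 promoters of that length. Each line gives the strand that carries the element, 5′ to 3′, with the matched element in capitals; Hsp90b1 has 2 copies.
Hspa5 (chr2:34772020-34772048, + strand): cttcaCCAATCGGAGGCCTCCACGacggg
Calr (chr8:84847070-84847098, + strand): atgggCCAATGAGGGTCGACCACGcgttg
Hsp90b1 (chr10:86705633-86705661, - strand): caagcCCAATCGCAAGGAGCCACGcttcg
Hsp90b1 (chr10:86705528-86705556, + strand): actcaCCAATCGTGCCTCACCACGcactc
Canx (chr11:50325795-50325823, - strand): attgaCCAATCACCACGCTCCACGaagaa
Pdia6 (chr12:17266486-17266514, + strand): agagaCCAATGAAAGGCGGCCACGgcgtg
Dnajc3 (chr14:118937822-118937850, + strand): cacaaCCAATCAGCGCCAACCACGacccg
Creld2 (chr15:88819515-88819543, - strand): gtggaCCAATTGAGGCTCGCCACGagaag
Syvn1 (chr19:6046527-6046555, + strand): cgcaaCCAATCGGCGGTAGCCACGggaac

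The element began 65 bases before the annotated start in Hspa5, 126 before it in Creld2 and 44 before it in Syvn1. A shorter relative, the ER stress response element II, was searched on both strands as ATTGG and CCACG with any 1 base between them, and was found in 2 of the 29 genes against 0.0365% of all promoters.
Herpud1 (chr8:94386368-94386396, + strand): cgggcgctgATTGGGCCACGttggacact
Dnajb11 (chr16:22857843-22857871, + strand): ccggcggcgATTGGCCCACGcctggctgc

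The C/EBP-ATF response element, which ATF4 binds with a C/EBP partner, was searched as TGATGNAA on both strands. It was found in 4 of the 29 genes, against 3.97% of all promoters. These were 3 genes of the ATF4 arm and Herpud1, whose window held this element and the ER stress response element II without overlap.
Chac1 (chr2:119351039-119351066, - strand): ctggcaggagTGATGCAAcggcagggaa
Trib3 (chr2:152344029-152344056, + strand): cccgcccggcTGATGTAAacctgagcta
Asns (chr6:7693215-7693242, - strand): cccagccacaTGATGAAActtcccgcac
Herpud1 (chr8:94386307-94386334, - strand): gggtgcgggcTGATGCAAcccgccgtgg

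The 2 genes nearest to the test's threshold were Creld2 and Psat1, and the 250 bases before their annotated start are shown in full on the gene strand. Creld2 holds the ER stress response element on the other strand, so its letters stand reversed and complemented in capitals, whereas none of the 3 searched elements was found in the Psat1 window.
Creld2 (chr15:88819396-88819645, + strand): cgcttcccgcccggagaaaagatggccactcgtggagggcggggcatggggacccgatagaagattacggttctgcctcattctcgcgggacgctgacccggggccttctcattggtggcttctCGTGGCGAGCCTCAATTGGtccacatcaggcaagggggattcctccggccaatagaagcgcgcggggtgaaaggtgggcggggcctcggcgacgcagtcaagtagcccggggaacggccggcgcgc
Psat1 (chr19:15925060-15925309, - strand): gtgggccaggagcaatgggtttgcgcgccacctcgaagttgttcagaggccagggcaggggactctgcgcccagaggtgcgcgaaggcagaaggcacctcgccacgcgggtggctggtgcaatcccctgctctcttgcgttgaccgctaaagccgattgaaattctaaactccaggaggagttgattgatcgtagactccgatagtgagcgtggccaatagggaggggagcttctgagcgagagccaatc

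Depth, read from the spacing of low FPKM values, was 17610000 to 18320000 fragments with the full transcript length and 18310000 to 19060000 with 30 bases taken off, and each library had 16078 to 16537 genes above 0. Transcripts of other testicular cell types were present in both groups. The counts below stand beside these shares of all genes tested. Limma called 1.57% higher and 1.89% lower at an adjusted p under 0.05, and 9.45% in either direction with the replicate number as a block. An unadjusted p under 0.05 in limma was reached by 24.1%, and the groups did not overlap in 30.9%. The smooth muscle list of 10 genes, among them the actin gene Acta2, summed to 3593 to 4038 FPKM in the untreated libraries and 4078 to 5783 in the ET-1 libraries, so the labelled cell type's markers were abundant. The 12 Sertoli cell markers summed to 1071, 2604 and 1334 FPKM untreated and to 3139, 6880.2 and 3158 FPKM with ET-1, with 2 of 11 tested markers higher in limma and 5 with the replicate number as a block. Clu, which other cells express too, made up most of each sum. The 8 Leydig cell markers summed to 2393 to 5016 FPKM untreated and 883 to 2479 with ET-1, most of each sum being Insl3, and 0 of 5 tested markers were called (3 had an unadjusted p under 0.05 in limma; 1 was higher and 2 lower with the block). Star, a Leydig marker for cholesterol import into mitochondria, was at 77.7, 79.7 and 62.0 FPKM untreated and at 130.3, 104 and 155 FPKM with ET-1, opposite to the sum. The 15 macrophage markers summed to 127 to 208 FPKM untreated and 320.5 to 756 with ET-1. Of 14 tested macrophage markers, 1 rose in limma, 7 rose and 1 fell with the block, 13 were higher by sign and 9 did not overlap. By sign, 5333 of all 11664 genes tested were higher. The macrophage markers Adgre1 and Itgam were tested only through the ET-1 group, since every untreated value was under 1 FPKM. Both count among the markers that were higher and did not overlap, so these counts are partly due to the filter. For the 10 endothelial markers the sums were 61.3 to 97.4 and 27.2 to 47.8 FPKM (4 of 6 tested markers fell, 5 with the block), and for the 10 germ cell markers 9.25 to 14.6 and 7.50 to 17.8 FPKM. The endothelial marker Kdr was tested only through the untreated group, since every ET-1 value was under 1 FPKM. No marker of these lists was at 0 in all 6 libraries, although Cyp17a1, which Leydig cells need for androgen synthesis, was listed at 0 in 3 of them. In such mixed RNA, fewer cells of a type and less RNA per cell cannot be told apart.

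No gene of the 32 passed the test between ET-1 and untreated libraries. With limma over all 11664 genes at a Benjamini-Hochberg adjusted p of 0.05, 0 of the 32 were called, against 3.46% of all genes (1.57% higher and 1.89% lower). At an unadjusted p under 0.05 in limma, 7 of the 32 were counted, 2 higher and 5 lower, against 24.1% of all genes. The groups did not overlap in 8 of the 32, 2 higher and 6 lower with ET-1, against 30.9% of all genes. Both shares lie near or under the background, so neither is a result about these genes. By sign 10 were higher and 22 lower, where 5333 of all genes tested were higher and 6331 lower. Their median log2 change was -0.11, with -0.027 over all genes tested. In the authors' deposited table, which names DEGseq for its q-value, 27 of the 32 had a q under 0.05, 9 higher and 18 lower. So did 66.1% of the 16812 genes that had a q-value in it. No source used here says how that comparison used the replicates. With 3 libraries a group, the smallest p of an exact permutation test is 0.1, and no such test of single genes was run.

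**Figure D1:**
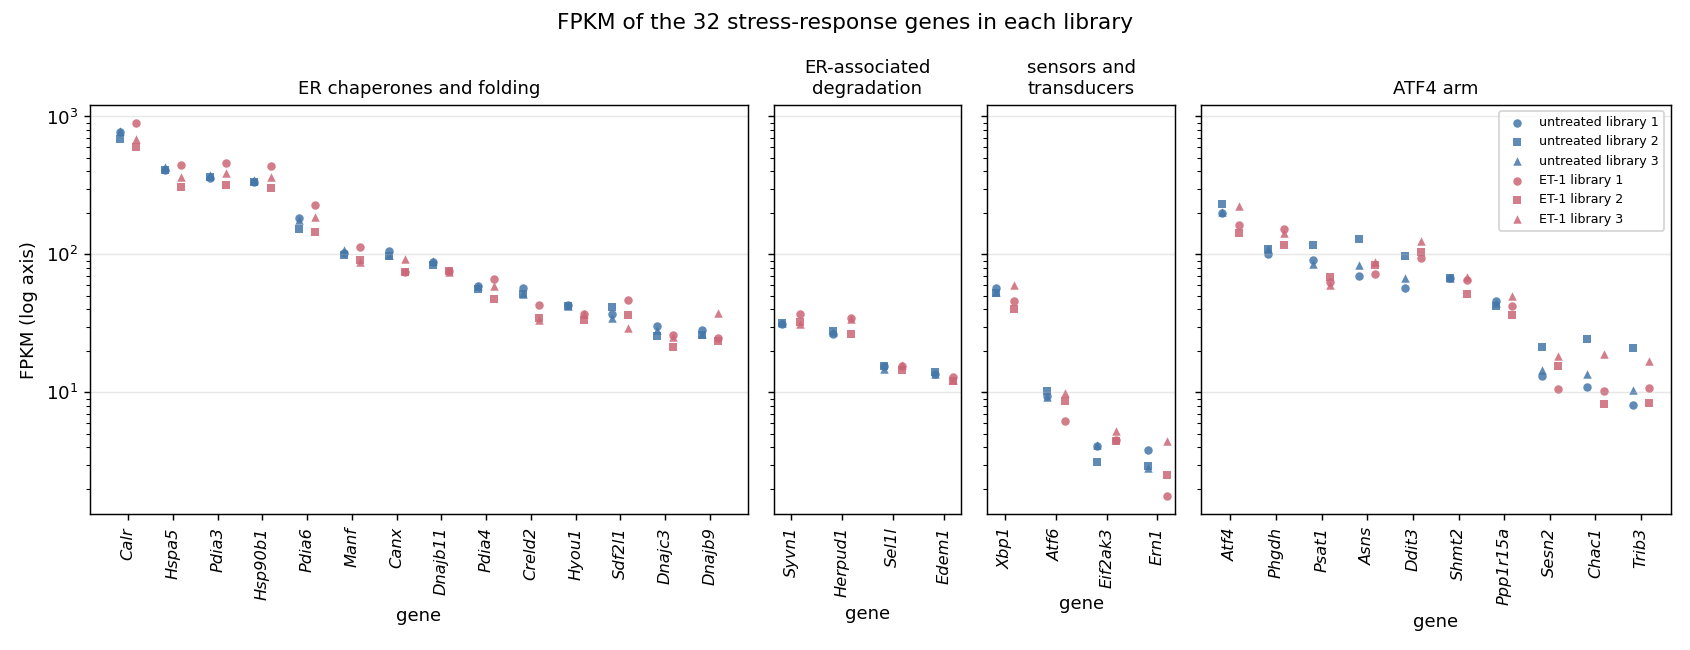
FPKM on a log axis of each of the 32 genes in each library, by role and ordered by untreated mean; blue points are the 3 untreated and red points the 3 ET-1 libraries, and the marker shape gives the library number. Calr is the most abundant at a mean of 748 FPKM untreated, the sensors Ern1 and Eif2ak3 the least, and the groups overlap in most genes.

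**Figure D2:**
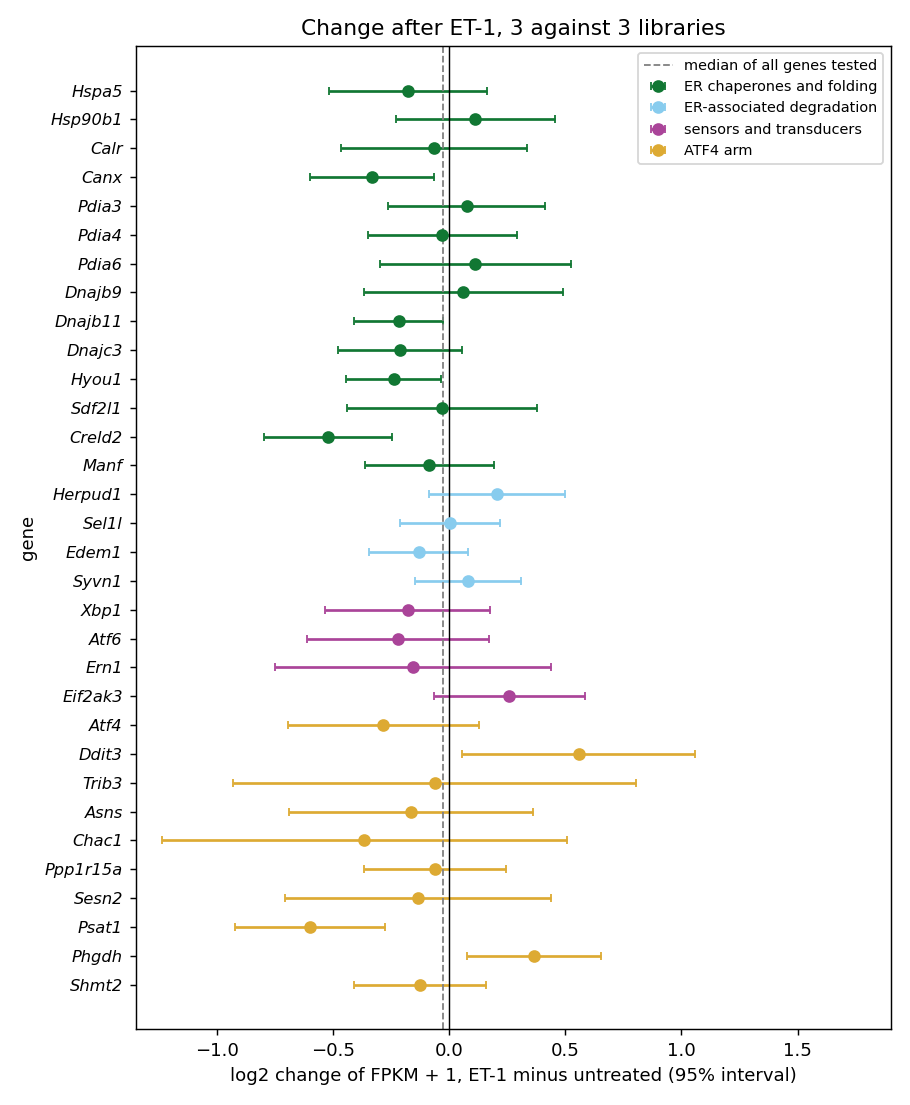
Log2 change of FPKM + 1, ET-1 minus untreated, of each gene with its 95% interval from limma (3 libraries each); the dashed line is the median of all genes tested at -0.027. The intervals of Canx, Dnajb11, Hyou1, Creld2 and Psat1 lie below 0 and those of Ddit3 and Phgdh above 0, before adjustment for the number of genes.

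The ER chaperones and folding enzymes were abundant, and none of them was called. Calr, the calcium-binding lectin chaperone calreticulin, ranked 113 among the 11664 genes tested by its untreated mean FPKM, and Hspa5, the ER Hsp70 chaperone BiP, ranked 203. Of the 14 genes of this role, 0 passed limma, and 4, all of them lower, had an unadjusted p under 0.05, against 24.1% of all genes in either direction. By sign, 4 had a higher and 10 a lower mean log2 value with ET-1, where 6331 of the 11664 genes tested were lower. The median log2 change was -0.075. Calr was at 778, 682 and 784 FPKM untreated and at 892, 597 and 682 FPKM with ET-1. Hspa5 was at 407, 413 and 430.2 FPKM untreated and at 443, 311 and 362 FPKM with ET-1. Both were highest in ET-1 library 1 and lowest in ET-1 library 2, with the untreated values between them, so the groups overlapped. The log2 change of Hspa5 was -0.18 ± 0.14 (SE; 95% interval -0.52 to 0.16; limma adjusted p = 0.494).

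The chaperone Hsp90b1 and the disulfide isomerases Pdia3 and Pdia6 had the same order of the ET-1 libraries as Calr and Hspa5. Hsp90b1, the ER Hsp90 chaperone GRP94, was at 332, 334 and 346 FPKM untreated and at 438, 304 and 365 FPKM with ET-1. Pdia3, a disulfide isomerase that works with calreticulin and calnexin, was at 360.0, 365 and 374 FPKM untreated and at 458, 320.3 and 392 FPKM with ET-1. Pdia6, another disulfide isomerase, was at 184, 153 and 177 FPKM untreated and at 229, 146 and 188 FPKM with ET-1. In each of the 3 the untreated values lay inside the range of the ET-1 values. Pdia4, a further member of that isomerase family, had group means of 58.3 ± 1.99 and 57.7 ± 9.87 FPKM (SD, n = 3 each), and Manf, a secreted ER stress protein, 103 ± 4.05 and 97.7 ± 13.5 FPKM. ET-1 library 1 had the highest value of the 6 in 8 of the 14 chaperone genes, and ET-1 library 2 the lowest in 10. Among the untreated libraries, library 2 was the lowest in 9 of the 14.

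Creld2, an ER stress-inducible protein that interacts with folding enzymes, came nearest to the threshold of the chaperone genes. It lies on chromosome 15, 88819646 to 88826681, mm10 (gene ID 76737). Creld2 was at 56.9, 51.6 and 51.8 FPKM untreated and at 42.8, 34.8 and 33.6 FPKM with ET-1. All 3 ET-1 values were below all 3 untreated values, with means of 53.4 ± 2.98 and 37.1 ± 5.01 FPKM (SD, n = 3 each). The log2 change was -0.52 ± 0.12 (SE; 95% interval -0.80 to -0.24), with a limma adjusted p of 0.0617. With the replicate number as a block Creld2 passed, at a limma adjusted p of 0.0311, where 9.45% of all genes passed.

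The groups did not overlap in 3 more chaperone genes, each lower with ET-1. Canx, the membrane-bound lectin chaperone calnexin, was at 107, 98.0 and 99.6 FPKM untreated and at 75.1, 74.5 and 92.5 FPKM with ET-1. ET-1 library 3 lay nearest to the untreated values, and without that library Canx passed limma (log2 change -0.43, adjusted p = 0.0459), where 6.83% of all genes passed, against an adjusted p of 0.138 with all libraries. Hyou1, the large ER chaperone GRP170, was at 43.2, 42.2 and 42.2 FPKM untreated and at 37.1, 33.6 and 37.2 FPKM with ET-1 (log2 change -0.24 ± 0.086, SE; limma adjusted p = 0.153). Dnajb11, a cochaperone of BiP, was at 88.8, 84.0 and 90.4 FPKM untreated and at 75.7, 75.3 and 74.8 FPKM with ET-1 (log2 change -0.22 ± 0.081, SE; limma adjusted p = 0.162). The ET-1 values of Dnajb11 had a coefficient of variation of 0.607%. In all, the groups did not overlap in 4 of 14 chaperone genes, against 30.9% of all genes in either direction. All 4 were lower, where 17.6% of all genes did not overlap and were lower. The 4 of 14 lie near the share in either direction, so the count is not a result about these genes.

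The remaining chaperone genes overlapped between the groups. Dnajb9, the BiP cochaperone ERdj4, was at 28.2, 26.0 and 26.6 FPKM untreated and at 24.8, 23.6 and 37.9 FPKM with ET-1. It was highest in ET-1 library 3, unlike the genes above. Dnajc3, the BiP cochaperone P58IPK, had means of 28.1 ± 2.19 and 24.2 ± 2.41 FPKM, and Sdf2l1, an ER protein that acts with ERdj cochaperones, 37.7 ± 3.53 and 37.4 ± 8.70 FPKM (SD, n = 3 each). The spread was wider among the ET-1 than among the untreated libraries in 13 of the 14 genes. The median coefficient of variation of the chaperone genes was 4.09% untreated and 17.4% with ET-1, against 7.71% and 12.96% for all genes tested with a mean FPKM of at least 10. Untreated libraries 1 and 3 had the highest Pearson correlation within a group, 0.996 across genes on log2(FPKM + 1).

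Genes of ER-associated degradation, which moves misfolded proteins out of the ER to the proteasome, gave 0 calls among 4 in limma and none at an unadjusted p under 0.05, and the lowest 95% interval bound was -0.34 and the highest 0.50 on the log2 scale. Herpud1, a membrane protein of the degradation complex, was at 26.3, 28.1 and 27.4 FPKM untreated and at 34.9, 26.6 and 34.0 FPKM with ET-1. ET-1 libraries 1 and 3 were above every untreated library and ET-1 library 2 was not. Edem1, a lectin that sorts glycoproteins for degradation, was at 13.5, 14.1 and 13.7 FPKM untreated and at 12.9, 12.2 and 12.3 FPKM with ET-1. Its groups did not overlap, but the difference was small (log2 change -0.13 ± 0.090, SE; limma adjusted p = 0.419). Sel1l and Syvn1, the scaffold and the ubiquitin ligase HRD1 of the same complex, had log2 changes of 0.0035 ± 0.090 and 0.083 ± 0.10 (SE). Sel1l had means of 15.3 ± 0.465 and 15.3 ± 0.621 FPKM and Syvn1 of 31.6 ± 0.326 and 33.6 ± 3.07 FPKM (SD, n = 3 each).

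Of the sensors and transducers, none of 4 passed limma, also at an unadjusted p of 0.05, and the 3 membrane sensors were the lowest of the 32 genes in untreated cells. Xbp1, the transcription factor whose message IRE1 splices, was at 57.5, 52.4 and 53.8 FPKM untreated and at 46.2, 40.1 and 59.6 FPKM with ET-1. Ern1, which encodes IRE1, was at 3.83, 2.95 and 2.83 FPKM untreated and at 1.78, 2.51 and 4.43 FPKM with ET-1. Atf6, the sensor that is cleaved into a transcription factor, was at 9.39, 10.3 and 9.27 FPKM untreated and at 6.23, 8.64 and 9.91 FPKM with ET-1. ET-1 library 3 was the highest of the ET-1 libraries in each of the 3, and the groups overlapped in each. Gene-level FPKM does not separate spliced from unspliced Xbp1. Eif2ak3, which encodes PERK, was at 4.12, 3.12 and 4.19 FPKM untreated and at 4.50, 4.43 and 5.27 FPKM with ET-1. Its groups did not overlap, with ET-1 the higher (log2 change 0.26 ± 0.14, SE; 95% interval -0.067 to 0.58; limma adjusted p = 0.300). At such levels the log2(FPKM + 1) scale understates a change.

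In the ATF4 arm, Atf4 and several of its targets were highest in untreated library 2, and no gene passed. Of the 10 genes, 0 passed limma and 3 had an unadjusted p under 0.05 (Ddit3 and Phgdh higher, Psat1 lower), against 24.1% of all genes. By sign, 2 had a higher and 8 a lower mean log2 value with ET-1, where 6331 of the 11664 genes tested were lower. The median log2 change was -0.13. Atf4, the transcription factor of the arm, was at 199.5, 232 and 204 FPKM untreated and at 163, 143 and 224 FPKM with ET-1. Trib3, a pseudokinase target of ATF4 and CHOP, was at 8.08, 20.9 and 10.4 FPKM untreated and at 10.8, 8.39 and 16.9 FPKM with ET-1. Chac1, an enzyme that degrades glutathione, was at 10.9, 24.6 and 13.5 FPKM untreated and at 10.2, 8.24 and 18.9 FPKM with ET-1. Each of the 3 was highest in untreated library 2 and next highest in ET-1 library 3, so the groups overlapped.

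Asns, which encodes asparagine synthetase, was at 69.5, 129 and 84.3 FPKM untreated and at 72.6, 83.9 and 87.8 FPKM with ET-1. Sesn2, the stress protein sestrin 2, was at 13.2, 21.2 and 14.6 FPKM untreated and at 10.5, 15.6 and 18.5 FPKM with ET-1. Untreated library 2 was again the highest for both, and it was the highest of the 6 libraries in 6 of the 10 ATF4-arm genes. Within the ET-1 group, library 3 led in 8 of the 10. The 95% intervals of these targets were wide, from -1.24 to 0.51 for Chac1 and from -0.93 to 0.81 for Trib3 on the log2 scale. Both intervals hold falls and rises, so 3 libraries a group did not settle the direction of a change. Ppp1r15a, the phosphatase subunit GADD34 that reverses eIF2 phosphorylation, had means of 44.3 ± 1.92 and 42.8 ± 6.89 FPKM, and Shmt2, the mitochondrial serine hydroxymethyltransferase, 67.3 ± 0.206 and 62.0 ± 8.86 FPKM (SD, n = 3 each). Shmt2 was at 67.3, 67.1 and 67.5 FPKM untreated, the narrowest range of the ATF4 arm, and was lowest in ET-1 library 2, at 51.9 FPKM.

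Enzymes of consecutive steps of serine synthesis lay on opposite sides of the untreated values. Psat1, phosphoserine aminotransferase (chromosome 19, 15905123 to 15925059, mm10; gene ID 107272), was at 91.1, 117 and 86.0 FPKM untreated and at 62.8, 68.6 and 60.3 FPKM with ET-1. Phgdh, phosphoglycerate dehydrogenase, which makes its substrate (chromosome 3, 98313171 to 98339969, mm10; gene ID 236539), was at 100.1, 109 and 109.7 FPKM untreated and at 154, 117 and 142 FPKM with ET-1. All ET-1 values of Psat1 were below, and all those of Phgdh above, the untreated values. Psat1 had a log2 change of -0.60 ± 0.14 (SE; limma adjusted p = 0.0635) and Phgdh one of 0.36 ± 0.12 (SE; limma adjusted p = 0.134). With the replicate number as a block, Psat1 passed at a limma adjusted p of 0.0257. The ratio of Phgdh to Psat1 FPKM was 1.098, 0.927 and 1.28 untreated and 2.45, 1.71 and 2.36 with ET-1. Psph, the third enzyme of the pathway, had means of 36.0 ± 4.10 and 33.7 ± 1.903 FPKM (SD, n = 3 each; limma adjusted p = 0.652), and its groups overlapped.

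Ddit3, which encodes the pro-apoptotic transcription factor CHOP, had the highest log2 change of the 32 genes. Ddit3 was at 56.8, 98.1 and 68.0 FPKM untreated and at 93.9, 104 and 126 FPKM with ET-1. The value of untreated library 2 fell between those of ET-1 libraries 1 and 2, so the groups overlapped, and the log2 change was 0.56 ± 0.21 (SE; limma adjusted p = 0.170). The ratio of Ddit3 to Atf4 FPKM was 0.285, 0.423 and 0.334 untreated and 0.577, 0.725 and 0.561 with ET-1. For this ratio and for that of Phgdh to Psat1 the groups did not overlap. Each gave p = 0.1 in a two-sided exact permutation test, the smallest that 3 against 3 libraries can give, and 0.1 after adjustment over the 2. Both ratios, and Psph, were chosen after the values were seen, so these p-values are no support for a difference. For Phgdh over Psat1 the outcome was also fixed beforehand, because the groups of the 2 genes already lay apart in opposite directions.

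**Figure D3:**
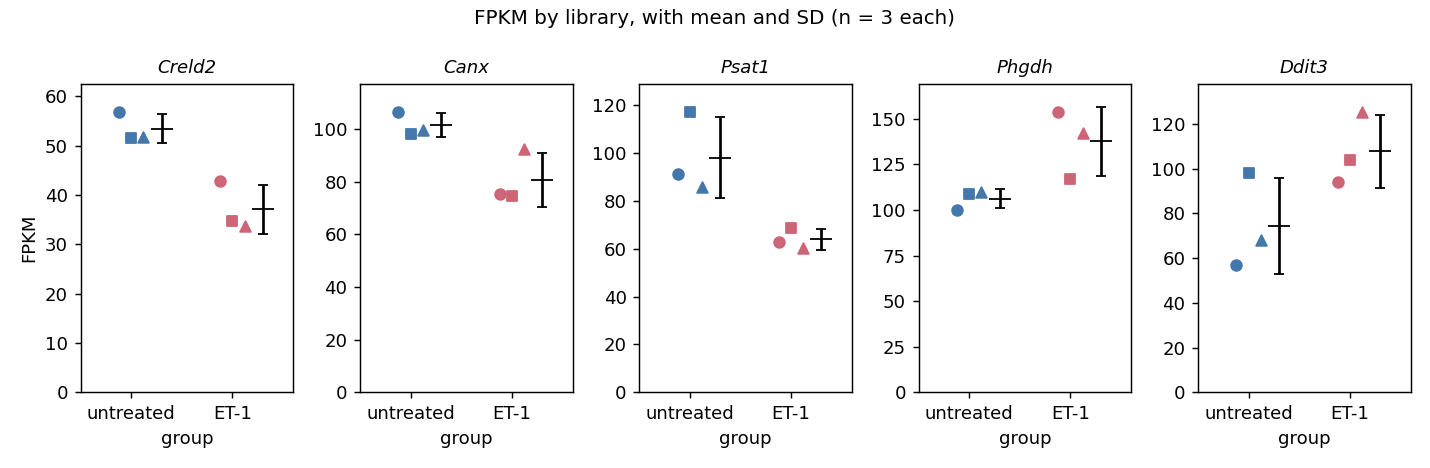
FPKM of the chaperone genes Creld2 and Canx and the ATF4-arm genes Psat1, Phgdh and Ddit3 in each library (blue untreated, red ET-1; marker shape gives the library number), with the mean and SD of each group in black (n = 3 each). Creld2, Canx and Psat1 are lower and Phgdh higher in all 3 ET-1 libraries, whereas Ddit3 overlaps through untreated library 2 at 98.1 FPKM.

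Chaperones and ATF4-arm genes were ordered differently over the libraries. Over the 14 chaperone genes, the mean log2(FPKM + 1) was 6.78, 6.70 and 6.76 untreated and 6.80, 6.47 and 6.65 with ET-1. Over the 10 ATF4-arm genes, it was 5.51, 6.03 and 5.64 untreated and 5.55, 5.47 and 5.89 with ET-1. ET-1 library 2 was thus the lowest in both, ET-1 library 1 the highest for chaperones and untreated library 2 the highest for the ATF4 arm. The difference, chaperones minus ATF4 arm, was 1.02 ± 0.31 untreated and 1.001 ± 0.25 with ET-1 (SD, n = 3 each), and the groups overlapped. The genes with an ER stress response element had log2 changes of -0.52 to 0.11 (median -0.12, 8 genes) and those with a C/EBP-ATF response element -0.37 to 0.21 (median -0.11, 4 genes). The median log2 changes of the 2 gene groups after ET-1, -0.075 and -0.13, were 0.055 apart, which is less than the spread between libraries of that difference (0.33, SD). Without untreated library 2 the ATF4-arm median was 0.0067, and without untreated library 1 it was -0.29.

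Markers of other cell types followed these levels in some libraries but not in others. ET-1 library 2, where chaperones and ATF4-arm genes were lowest, had the highest Sertoli sum given above. Untreated library 2 had the highest Sertoli sum of the untreated libraries. In the ATF4 arm these 2 libraries were opposite extremes, with means of 5.47 and 6.03 on log2(FPKM + 1). The Sertoli transcription factor gene Sox9 was at 20.8, 61 and 28.1 FPKM untreated and at 29.2, 63.2 and 39.6 FPKM with ET-1. ET-1 library 1, where most chaperone genes were highest, had the highest macrophage sum (756 FPKM). Among the untreated libraries, library 2 had the highest macrophage sum (208 FPKM) but the lowest chaperone mean (6.70). Untreated library 2, with the highest ATF4 arm, had the highest sum of 15 interferon-response genes, 2570.1 FPKM. Untreated libraries 1 and 3 had sums of 1029 and 1318 FPKM and the ET-1 libraries 188 to 357 FPKM. Of 14 tested genes of that list 10 fell, where 1.89% of all genes fell. With the block 13 fell, where 9.45% of all genes passed. ET-1 library 3, next highest in the ATF4 arm (mean 5.89), had an interferon sum of only 194 FPKM. The part of other cell types and of the interferon response in the levels of the chaperone and ATF4-arm genes was not tested.

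**Figure D4:**
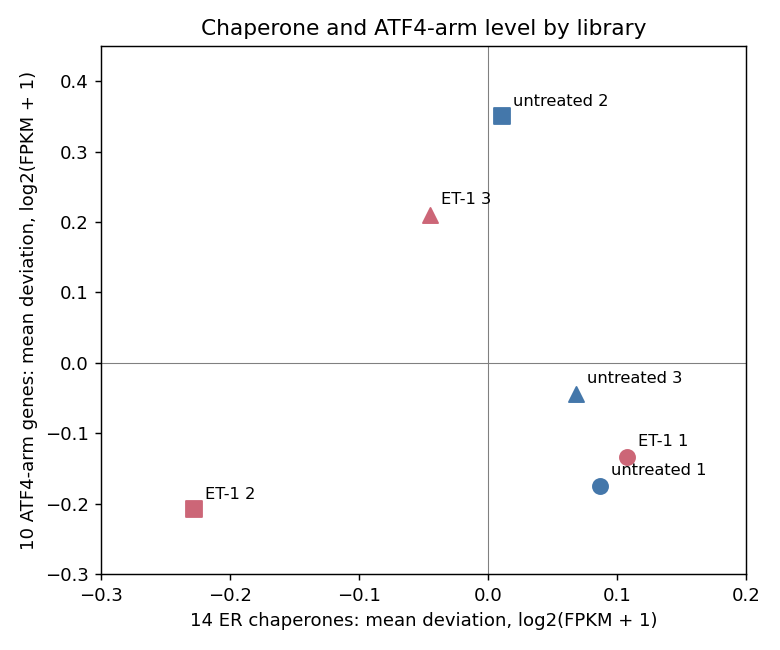
Mean deviation of the 14 chaperone genes (x axis) and of the 10 ATF4-arm genes (y axis) from each gene's mean over 6 libraries, in log2(FPKM + 1), 1 point per library; blue is untreated and red ET-1. Untreated library 2 and ET-1 library 3 lie at the top (0.35 and 0.21 for the ATF4 arm), and ET-1 library 2 lies lowest in both (-0.23 and -0.21).

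**Figure D5:**
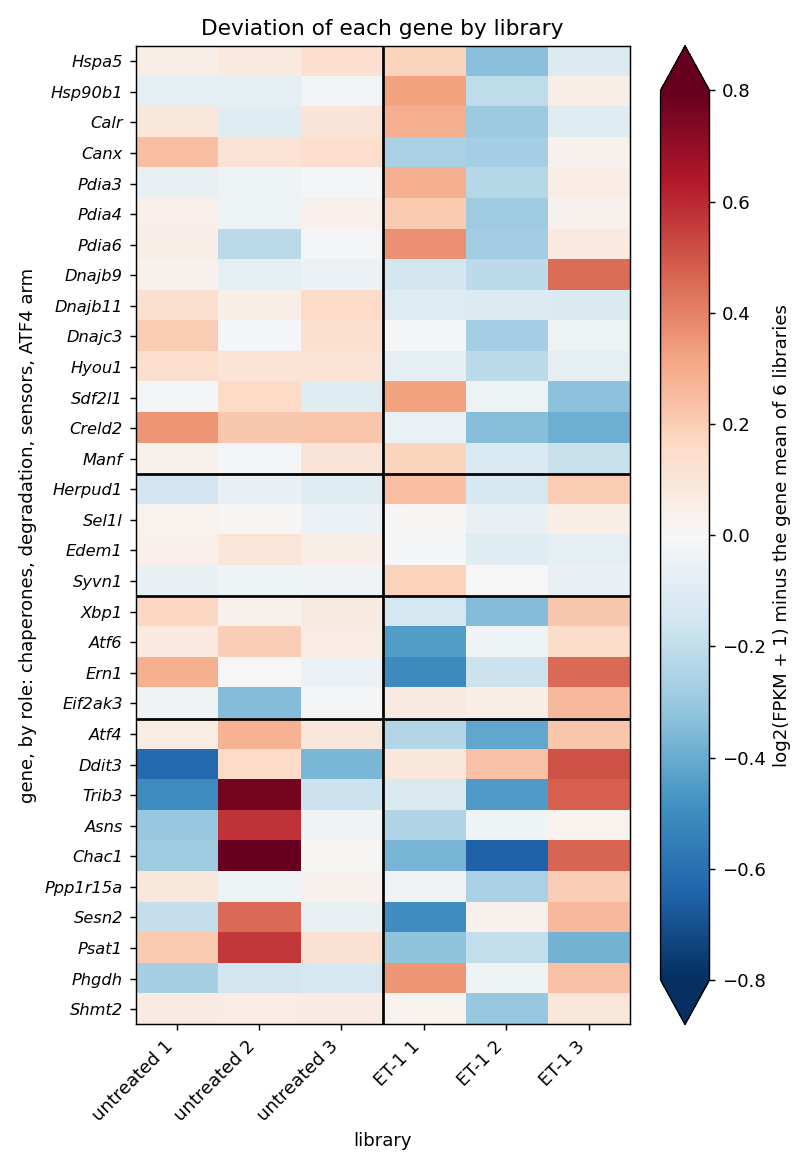
Deviation of each of the 32 genes in each library from the gene's mean over 6 libraries, in log2(FPKM + 1), with red above and blue below the mean; black lines separate the roles and the 2 groups. ET-1 library 2 has the lowest value in 10 of 14 chaperone genes, and untreated library 2 the highest in 6 of 10 ATF4-arm genes.

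Wider lists of the same pathways held few calls in limma. Of 44 other genes of ER folding, glycosylation and translocation, 43 were tested and none passed (median log2 change -0.015). An unadjusted p under 0.05 in limma was reached by 5 of the 43, against 24.1% of all genes. Fkbp7 was higher and Spcs3 lower with the replicate block, where 9.45% of all genes passed. P4hb, the disulfide isomerase that also serves collagen prolyl hydroxylation, had means of 370.1 ± 56.2 and 421 ± 68.1 FPKM (SD, n = 3 each), and Spcs3, a signal peptidase subunit, had the smallest p (means 41.2 ± 5.66 and 25.2 ± 3.62 FPKM; limma adjusted p = 0.0578). With the block, Spcs3 had a limma adjusted p of 0.0158, and it also passed without untreated library 2 (0.0491) and without ET-1 library 3 (0.0479). Fkbp7, a peptidyl-prolyl isomerase of the ER, had means of 28.5 ± 0.652 untreated and 43.7 ± 6.82 with ET-1 FPKM (limma adjusted p = 0.0591, and 0.0345 with the block). Of 22 other degradation genes none passed (median log2 change -0.067), and 2 had an unadjusted p under 0.05 in limma, against 24.1% of all genes. Derl3, a derlin of the degradation channel, had the smallest p there, with means of 1.05 ± 0.387 and 2.71 ± 1.34 FPKM (limma adjusted p = 0.138).

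Of 16 further transducers and eIF2 regulators, 2 fell and none rose (median log2 change -0.21), where 1.89% of all genes fell. Eif2ak2, the double-stranded RNA sensor PKR, which interferon also induces, fell and was at 21.8, 39.7 and 26.2 FPKM untreated and at 11.1, 11.1 and 10.2 FPKM with ET-1 (log2 change -1.32 ± 0.21, SE; limma adjusted p = 0.0308). Eif2b3, a subunit of the exchange factor that phosphorylated eIF2 inhibits, fell and was at 29.3, 27.8 and 30.4 FPKM untreated and at 16.9, 17.9 and 21.7 FPKM with ET-1 (log2 change -0.61 ± 0.12, SE; limma adjusted p = 0.0442). For both, every ET-1 value lay below every untreated value.

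Of 30 other tested targets of ATF4 and CHOP, 2 rose and none fell (median log2 change 0.014), where 1.57% of all genes rose, and with the replicate block Gdf15 also rose and Slc7a1 fell. Bbc3, the pro-apoptotic protein PUMA, rose and was at 8.32, 9.42 and 8.71 FPKM untreated and at 13.7, 14.3 and 14.02 FPKM with ET-1 (log2 change 0.61 ± 0.10, SE; limma adjusted p = 0.0308). Slc7a3, a transporter of cationic amino acids, rose from 0.800 ± 0.151 to 1.82 ± 0.251 FPKM (SD, n = 3 each; limma adjusted p = 0.0463). Slc7a3 was tested only through the ET-1 group, since every untreated value was under 1 FPKM, and with a filter on the mean FPKM of all libraries it missed the threshold (limma adjusted p = 0.0507). Gdf15, a stress-induced secreted factor, had means of 37.0 ± 18.2 untreated and 67.8 ± 22.7 with ET-1 FPKM (limma adjusted p = 0.211, and 0.0331 with the block). Slc7a1, a transporter of cationic amino acids, had means of 23.4 ± 4.56 untreated and 14.2 ± 4.05 with ET-1 FPKM (limma adjusted p = 0.125, and 0.0489 with the block). Atf3, a stress-induced transcription factor, was at 7.02, 11.7 and 7.52 FPKM untreated and at 10.6, 9.37 and 16.9 FPKM with ET-1. The transcription factor gene Cebpb was at 74.9, 47.3 and 74.7 FPKM untreated and at 46.9, 35.9 and 108 FPKM with ET-1. Neither passed, and the groups overlapped in both.

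Of the 20 cytosolic aminoacyl-tRNA synthetases, many of them targets of ATF4, 1 fell and none rose, where 1.89% of all genes fell. With the replicate block 2 fell, Rars and the histidyl-tRNA synthetase Hars, where 9.45% of all genes passed. By sign 19 were lower, where 6331 of the 11664 genes tested were lower. Of the 19, 11 had an unadjusted p under 0.05 in limma, against 24.1% of all genes in either direction. The groups did not overlap in 11, against 30.9% of all genes. The median log2 change was -0.29. Rars, the arginyl-tRNA synthetase, fell and was at 105, 98.7 and 102 FPKM untreated and at 76.4, 70.8 and 77.2 FPKM with ET-1 (log2 change -0.44 ± 0.085, SE; limma adjusted p = 0.0448). All 5 genes called here missed the threshold with untreated libraries 1 and 3 averaged, without untreated library 3, without ET-1 library 1 and without ET-1 library 2. Without untreated library 1, Bbc3, Eif2b3, Rars and Slc7a3 missed it, and Eif2ak2 passed. Without untreated library 2, Eif2b3, Rars and Slc7a3 missed it, and Bbc3 and Eif2ak2 passed. Without ET-1 library 3, only Slc7a3 missed the threshold, so Slc7a3 missed it whichever library was left out. Rars also missed it with equal medians (0.0702), and Rars and Eif2b3 with quantile normalization (0.0541 and 0.0529), with no trend (0.0593 and 0.0510) and with no filter (0.0581 and 0.0918), all limma adjusted p. Eif2ak2 missed it with no filter (0.0943), as did Slc7a3 (0.0792), which also missed it at a pseudocount of 5 (0.0545) and with quantile normalization (0.0592). Fkbp7, Gdf15, Slc7a1 and Hars were named after their values were seen.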

How the data were processed

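Per the file headers, the deposited table gives each gene's FPKM in every library. Per the submitters' processing notes, HISAT2 2.0.4, Bowtie2 2.2.5, RSEM 1.2.12 and mm10 were used, with no role given. Further deposited columns hold the authors' own comparison, as a log2 fold change, a p-value and a q-value that the header names for DEGseq. Its log2 value was positive where the ET-1 mean was higher, or negative where lower, in 99.5% of genes with unequal means. Gene positions and transcript lengths were deposited in the same table.

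Of 22135 rows, 19285 had values. A gene was tested if 3 or more libraries reached 1 FPKM, which left 11664. Testing used limma 3.58.1 (R 4.3.3) on log2(FPKM + 1), two-sided, with a trend of the variance on the mean and no covariate, and Benjamini-Hochberg adjustment over all genes at 0.05. No count test was run. Depth came from single-transcript genes 300 to 1200 bases long at FPKM 0.05 to 0.6, whose values lay within 0.15 of a whole fragment in 84.6% to 89.3% of cases; taking 30 bases off the length gave the best match. FPKM depends on the transcript model and on the other genes of a library. On simulated data with each gene's own spread in these libraries, limma recovered 27.8% of genes changed 1.5-fold, 66.6% changed 2-fold and 90.9% changed 4-fold (11664 genes, 200 changed). The folds were added on the log2(FPKM + 1) scale, with independent normal noise for each gene. Differences shared by many genes of a library were not simulated, so recovery in the real libraries may differ. Promoter sequences came from RefSeq's table for GRCm38.p6 and were matched by symbol.

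As a check of pairing, deviations from the group mean were correlated across genes between the libraries that share a number, which gave 0.228, 0.523 and 0.202. All exceed 0.1, so a fit with the number as a block stands beside a result where it changes a call. What a number stands for is not in the labels. Untreated library 3 with ET-1 library 1 gave 0.271, and untreated library 1 with ET-1 library 3 gave 0.249. Both exceed the values for matched numbers 1 and 3, so for these numbers the check does not show a pairing. The genes and lists were chosen with earlier results of these data known. The text names all 32 genes, up to 3 passing genes per direction of each wider list or else the one with the smallest p, and Atf3, Cebpb, Eif2ak2 and P4hb. The markers of Sertoli, Leydig, macrophage, endothelial, germ and smooth muscle cells and the interferon genes were used as sums. Alternatives were other pseudocounts, filters and scalings, no trend, the block, untreated libraries 1 and 3 averaged, and each library left out.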

Additional observations from a re-analysis of the deposited data

How the results depend on the processing

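Under the 9 alternatives other than leaving a library out, 280 of 288 values of the 32 genes kept their sign and their side of the threshold. The replicate block, the fit with paired replicate numbers, called 2 genes lower, 1 chaperone and 1 ATF4-arm gene, and changed no other call among the 32. Without ET-1 library 3, 1 gene, a chaperone, was called lower, so leaving out a library gave 0 to 1 calls. Signs turned for genes near 0. Pdia4 was 0.014 and Sdf2l1 0.012 with equal medians, and Pdia4, Sdf2l1 and Ppp1r15a were 0.026, 0.032 and 0.0062 with quantile normalization. Sel1l was -2.4e-05 with untreated libraries 1 and 3 averaged. The median of the degradation genes moved to 0.11 with quantile normalization. Leaving out 1 library turned the sign of these genes, over log2 ranges of Hsp90b1 -0.019 to 0.24, Calr -0.23 to 0.063, Pdia3 -0.048 to 0.21, Pdia4 -0.14 to 0.11, Pdia6 -0.041 to 0.28, Dnajb9 -0.15 to 0.18, Sdf2l1 -0.20 to 0.13, Sel1l -0.021 to 0.033, Ern1 -0.42 to 0.062, Trib3 -0.33 to 0.30, Asns -0.36 to 0.083, Ppp1r15a -0.17 to 0.053, Sesn2 -0.30 to 0.080, Cebpb -0.63 to 0.15. The groups did not overlap in 8 to 16 of the 32 genes when 1 library was left out, 13 without ET-1 library 1 (38.2% of all genes) and 16 without ET-1 library 3 (49.3% of all genes). Over all genes that share was 30.9% with 3 against 3 libraries and 33.6% to 49.3% with 1 left out. The wider lists gave 2 genes higher and 4 lower, 4 and 8 with the replicate block, 0 and 0 with untreated libraries 1 and 3 averaged, and 1 and 0 without a filter. They gave 1 higher at a pseudocount of 5 and 1 higher with a mean FPKM of at least 1, 1 higher and 2 lower with quantile normalization, and 2 lower without a trend. Leaving out a library gave 0 to 1 higher and 0 to 13 lower, the most lower calls without ET-1 library 3. Over all genes, the calls were 404, 1102 with the replicate block, 81 without a filter, and 0 to 797 when 1 library was left out. The causes were not tested. With 3 libraries a group, small differences could not be detected.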

Other observations

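The chaperones outside the ER were also described. Of 20 cytosolic heat shock genes none passed limma (9 at an unadjusted p under 0.05, 8 of them lower, against 24.1% of all genes; 1 fell with the replicate block, where 9.45% of all genes passed). Their median log2 change was -0.20, and the groups did not overlap in 12 of the 20, 10 of them lower, against 30.9% of all genes. Fkbp4, a cochaperone of Hsp90, had the smallest p, with means of 48.5 ± 6.71 and 33.1 ± 3.29 FPKM (SD, n = 3 each; limma adjusted p = 0.0789), and it was the gene that fell with the block (limma adjusted p = 0.0292).

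Of 10 tested genes of mitochondrial protein stress, 1 fell and none rose in limma (median log2 change -0.25), against 1.89% of all genes that fell. Hspd1, the mitochondrial chaperonin Hsp60, was at 225, 210.4 and 221 FPKM untreated and at 128, 131 and 155 FPKM with ET-1. All ET-1 values lay below all untreated values, and Hspd1 fell by 0.67 on the log2 scale (limma adjusted p = 0.0308, and 0.0211 to 0.178 over the alternatives). With untreated libraries 1 and 3 averaged, without a filter, or without any 1 library other than ET-1 library 3, Hspd1 missed the threshold.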
